A study of Arabidopsis thaliana with 12 samples.

Results

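Cellulose synthase genes CESA1 to CESA9 and CSI1 (CELLULOSE SYNTHASE INTERACTIVE 1) were followed in messenger RNA from Arabidopsis thaliana rosette leaves, by their locus identifiers. They are 10 of the 33597 named genes counted, and all 10 passed the filter on low counts. The primary wall members are CESA1 (AT4G32410), CESA2 (AT4G39350), CESA3 (AT5G05170), CESA5 (AT5G09870), CESA6 (AT5G64740) and CESA9 (AT2G21770). The secondary wall members are CESA4 (AT5G44030), CESA7 (AT5G17420) and CESA8 (AT4G18780), and CSI1 is AT2G22125. The deposited file calls CESA3 by its older name CEV1, CESA7 by IRX3 and CESA8 by IRX1, and gives CSI1 by its locus only.

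The libraries came from rosette leaves, the third of the rosette and the one after it, in 4 groups of 3 independent replicates, namely wild-type Columbia (Col) and ERF34 overexpressor line #1, each as mock and with salt. The overexpressor is a single line in the Col background that carries ERF34 with an N-terminal GFP tag behind the CsVMV promoter, a viral promoter that is active in most tissues. For salt, detached leaves at 16 DAE (not spelled out in the labels) lay for 1 day on 3 mM MES at pH 5.8 to which 100 mM NaCl had been added, kept at 22 °C in days of 16 h light and nights of 8 h. The mock records carry the same age and buffer without NaCl or days of treatment, so whether mock leaves were also detached and floated for a day is not stated, and a difference between salt and mock cannot be told apart from detachment and floating. Library totals ran from 10425430 to 18398594 counts, and every overexpressor library was shallower than every wild-type library.

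Plant cellulose is made at the plasma membrane by complexes of CESA proteins, each of which polymerises glucose from UDP-glucose. In primary walls, which surround growing cells, a complex holds CESA1, CESA3 and a member of the CESA6-like set (CESA2, CESA5, CESA6, CESA9), while the complexes of secondary walls, such as those of xylem vessels and fibres, hold CESA4, CESA7 and CESA8. CSI1 links primary wall complexes to cortical microtubules, which guide their paths. ERF34 belongs to the group IIId factors of the AP2/ERF family, and members of that group have been reported to activate primary wall CESA promoters in Arabidopsis.

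The promoters of CESA1, CESA3, CESA6 and CESA4 are shown from 250 bases before to 50 bases after the annotated start (RefSeq annotation of TAIR10.1, written 5′ to 3′ on the gene's strand), since CESA1 and CESA3 had the smallest unadjusted p of the members between genotypes in mock, CESA6 rose most among primary members in salt and CESA4 was the only secondary member called. Capitals mark the DRE core CCGAC (or GTCGG where the match lies on the other strand), an element bound by DREB-type AP2/ERF proteins, and SMRE, the secondary wall MYB element. The sequences lie at chr4:15646795-15647094 on the minus strand for CESA1, chr5:1535509-1535808 on the minus strand for CESA3, chr5:25880783-25881082 on the plus strand for CESA6 and chr5:17714140-17714439 on the plus strand for CESA4.
CESA1: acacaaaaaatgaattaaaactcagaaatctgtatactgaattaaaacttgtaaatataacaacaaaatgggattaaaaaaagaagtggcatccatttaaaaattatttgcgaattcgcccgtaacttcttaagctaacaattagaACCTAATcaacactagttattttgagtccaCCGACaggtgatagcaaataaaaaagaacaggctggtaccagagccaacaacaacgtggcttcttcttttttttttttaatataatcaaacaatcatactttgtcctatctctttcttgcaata
CESA3: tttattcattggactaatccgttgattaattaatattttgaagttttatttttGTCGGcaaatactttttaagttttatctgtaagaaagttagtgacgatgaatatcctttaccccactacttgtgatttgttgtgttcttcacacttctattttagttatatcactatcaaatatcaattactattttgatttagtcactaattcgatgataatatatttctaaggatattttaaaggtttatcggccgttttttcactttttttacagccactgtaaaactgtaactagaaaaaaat
CESA6: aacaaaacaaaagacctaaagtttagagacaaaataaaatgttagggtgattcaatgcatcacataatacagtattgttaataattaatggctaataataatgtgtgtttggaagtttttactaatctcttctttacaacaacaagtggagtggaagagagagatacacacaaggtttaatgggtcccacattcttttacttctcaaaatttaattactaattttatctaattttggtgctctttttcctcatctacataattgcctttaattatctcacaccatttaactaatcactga
CESA4: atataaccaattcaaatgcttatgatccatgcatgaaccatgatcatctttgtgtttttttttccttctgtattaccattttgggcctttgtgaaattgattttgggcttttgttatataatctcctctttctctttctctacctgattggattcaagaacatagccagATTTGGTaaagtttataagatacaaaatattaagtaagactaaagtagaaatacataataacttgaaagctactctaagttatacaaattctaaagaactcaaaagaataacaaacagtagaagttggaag

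The DRE core was searched on both strands and was present in 15.0% of 27443 promoters of this length. CESA1 held it with its first base at -74 from the start, CESA3 at -197 on the opposite strand, CESA8 at -223, and CSI1 held 2 matches after the start, at 10 and at 23. SMRE was searched as ACCAAAC or ACCAAAT, further as ACCAACC or ACCAACT, also as ACCTAAC or ACCTAAT, and last as ACCTACC or ACCTACT, on both strands, and was present in 33.6% of promoters. It was matched in CESA1, CESA4, CESA5, CESA7, CESA8 and CESA9. The GCC box GCCGCC (2.57% of promoters) and the G box CACGTG (7.68%) were matched in none of the 10 members. No match overlapped another, and CESA2 and CESA6 had no match to any of the 4 motifs in this window.

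ERF34, the overexpressed gene, was read at 9.58, 2.96 and 13.9 in counts-per-million (CPM) for wild-type mock and at 998, 1074 and 1082 CPM in overexpressor mock. In salt it was read at 16.4, 5.94 and 16.7 CPM in wild type and at 769, 1028 and 1007 CPM in the overexpressor. Every overexpressor library lay far above every wild-type one in both treatments, 119-fold in mock (adjusted p = 0.00254) and 71.7-fold in salt (adjusted p = 0.00154). The group IIId relatives ERF35 and ERF39 fell in wild-type salt by 1.86 and 1.67 on the log2 scale (adjusted p = 0.0183 and 0.0194), and ERF38 was called in no comparison.

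The primary wall set was read far more deeply than the secondary set in every group. Per kilobase of exon, mean wild-type mock levels were 87.8 ± 2.09 CPM per kb for CESA3 (SD, n = 3 here and below), 81.0 ± 5.48 for CESA1, 48.7 ± 8.57 for CESA6, 38.2 ± 8.01 for CESA2 and 23.8 ± 6.93 for CESA5. CESA4 stood at 0.874 ± 0.121 CPM per kb, CESA8 at 0.522 ± 0.228, CESA7 at 0.478 ± 0.144 and CESA9, known mainly from seeds, at 0.233 ± 0.0320. CSI1 was at 14.3 ± 2.40 CPM per kb. CESA3 was above CESA1 in all 3 wild-type mock libraries although their ranges overlapped, and in overexpressor salt CESA3 was the higher of the pair in 1 of 3 libraries. CESA1 stayed above CESA6 without overlap in all 4 groups, and CESA5 stayed above CESA4 likewise. Among the low members the order was not fixed, as neighbours among CESA4, CESA7 and CESA8 overlapped in every group except CESA4 above CESA8 in wild-type mock. The secondary trio together drew 35 to 202 counts per library, which limits the precision of all 3.

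**Figure D1:**
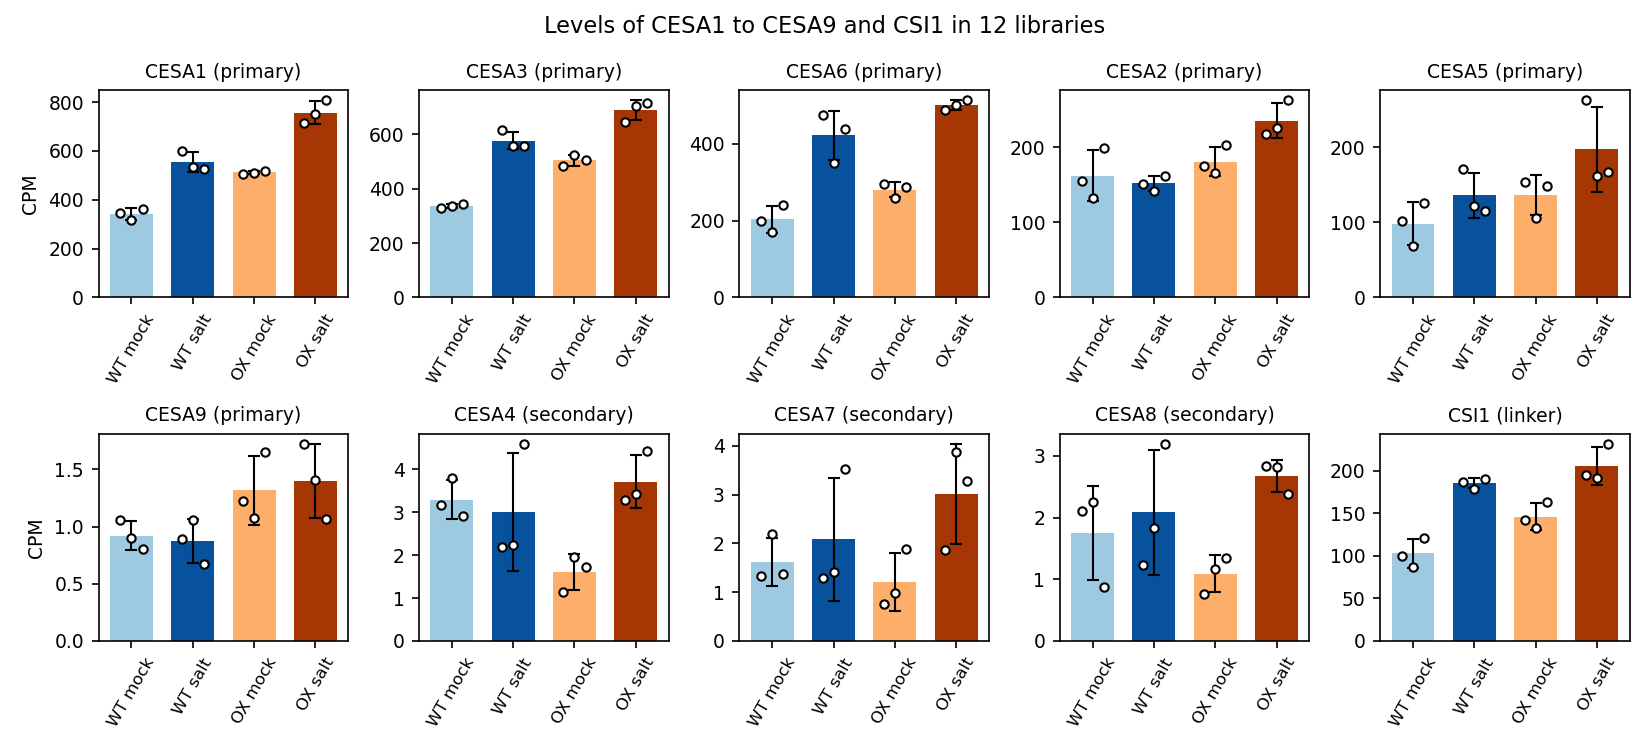
Level of each member in CPM (linear axis from 0, a separate scale per gene) in the 4 groups; bars are means, error bars are SD and circles are the 3 libraries of a group. WT is wild type and OX the ERF34 overexpressor. CESA1 and CESA3 are lowest in WT mock and highest in OX salt, and CESA4, CESA7 and CESA8 are below 5 CPM throughout.

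In wild-type leaves, salt was accompanied by higher levels of the main primary wall synthases and of CSI1. Of the 10 members, 4 were called higher and 0 lower, beside 20.3% of all genes tested called higher in this comparison. The called members were CESA1, CESA3, CESA6 and CSI1, and these were also the members whose salt libraries all lay above all mock libraries. The share of all genes that separate in this way was not counted. The median log2 fold change was 0.58 over the 6 primary members and 0.27 over the 3 secondary members, beside -0.01 over all genes tested.

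CESA6 was read at 198, 170 and 241 CPM in wild-type mock and at 476, 351 and 438 CPM in wild-type salt. The salt libraries were all higher, with no overlap, and CESA6 rose 2.08-fold (log2 fold change 1.05 ± 0.16 SE, adjusted p = 0.000501). CESA3 was read at 328, 337 and 344 CPM in mock and at 615, 559 and 558 CPM in salt. Its mock libraries were close together, the salt libraries all lay above them, and CESA3 rose 1.72-fold (log2 fold change 0.78 ± 0.10 SE, adjusted p = 0.000261). CESA1, its partner in the complex, was read at 344, 318 and 364 CPM in mock and at 602, 534 and 527 CPM in salt. These groups did not overlap either, and CESA1 rose 1.62-fold (log2 fold change 0.70 ± 0.11 SE, adjusted p = 0.000710). CSI1 was read at 99.5, 87.3 and 121 CPM in mock and at 187, 178 and 190 CPM in salt. All salt libraries were above all mock libraries, a rise of 1.80-fold (log2 fold change 0.85 ± 0.15 SE, adjusted p = 0.00115).

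The other CESA6-like members did not pass the test. CESA2 was read at 155, 132 and 199 CPM in wild-type mock and at 150, 142 and 162 CPM in salt, overlapping, with a log2 fold change of -0.10 (95% interval -0.45 to 0.26, adjusted p = 0.658). CESA5, also known from seed coat mucilage, was read at 102, 68.4 and 125 CPM in mock and at 171, 122 and 115 CPM in salt, with a log2 fold change of 0.46 (95% interval -0.14 to 1.06, adjusted p = 0.196). CESA9 was at 0.805 to 1.06 CPM in mock and 0.673 to 1.06 CPM in salt (log2 fold change -0.08, adjusted p = 0.854). The secondary members overlapped as well, with log2 fold changes of -0.13 for CESA4 (adjusted p = 0.768), 0.36 for CESA7 (adjusted p = 0.559) and 0.27 for CESA8 (adjusted p = 0.626). Their 95% intervals reached 0.55, 1.40 and 1.16, so a rise of the size seen for CESA6 lay inside those of CESA7 and CESA8 at this depth. In salt, replicate 3 was the highest wild-type library for all 3 secondary members, at 4.60 CPM for CESA4, 3.53 for CESA7 and 3.20 for CESA8, and without it the log2 fold changes of CESA7 and CESA8 were -0.26 and -0.18.

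In the overexpressor, salt was accompanied by higher levels of the same 4 genes and of CESA4. Of the 10 members, 5 were called higher and 0 lower, beside 9.72% of all genes tested called higher. For 8 members all salt libraries lay above all mock libraries, CESA7 and CESA9 being the exceptions. How many of all genes separate in this way was not counted, here or in the other comparisons, so whether such counts are unusual cannot be said. The median log2 fold change was 0.49 over primary and 1.29 over secondary members, beside 0.02 over all genes tested. In bulk leaves, fewer cells of a type and less RNA per cell cannot be told apart, which touches CESA4, CESA7 and CESA8 in particular because they are used mainly in xylem.

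CESA6 was read at 296, 259 and 289 CPM in overexpressor mock and at 488, 501 and 513 CPM in salt. The groups did not overlap, and CESA6 rose 1.78-fold (log2 fold change 0.83 ± 0.16 SE, adjusted p = 0.00663). CESA1 was read at 507, 511 and 518 CPM in mock and at 715, 750 and 807 CPM in salt. It rose 1.48-fold with no overlap (log2 fold change 0.56 ± 0.11 SE, adjusted p = 0.00773). CESA3 was read at 484, 523 and 508 CPM in mock and at 648, 704 and 716 CPM in salt. It rose 1.36-fold with no overlap (log2 fold change 0.45 ± 0.10 SE, adjusted p = 0.0151). CSI1 was read at 142, 133 and 163 CPM in mock and at 194, 192 and 231 CPM in salt. Its groups did not overlap and it rose 1.41-fold (log2 fold change 0.50 ± 0.15 SE, adjusted p = 0.0383).

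CESA4 was read at 1.15, 1.95 and 1.73 CPM in overexpressor mock and at 3.29, 3.43 and 4.43 CPM in salt. All salt libraries were above all mock libraries, a rise of 2.31-fold (log2 fold change 1.21 ± 0.33 SE, adjusted p = 0.0301). CESA8 was read at 0.766, 1.17 and 1.34 CPM in mock and at 2.84, 2.82 and 2.38 CPM in salt, without overlap, but missed the threshold (log2 fold change 1.29 ± 0.44 SE, adjusted p = 0.0631). CESA7 was read at 0.766, 0.976 and 1.89 CPM in mock and at 1.87, 3.87 and 3.28 CPM in salt. Its groups overlapped between mock replicate 3 and salt replicate 1, and it was not called (log2 fold change 1.29 ± 0.49 SE, adjusted p = 0.0912). CESA2 was read at 175, 165 and 202 CPM in mock and at 218, 226 and 262 CPM in salt, without overlap (log2 fold change 0.38 ± 0.16 SE, adjusted p = 0.125). CESA5 was at 106 to 154 CPM in mock and 162 to 263 CPM in salt (log2 fold change 0.54, adjusted p = 0.196), and CESA9 was at 1.07 to 1.65 and 1.07 to 1.72 CPM (log2 fold change 0.08, adjusted p = 0.872).

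With the replicate number as a block, CESA2 and CESA7 were also called in this comparison (edgeR adjusted p = 0.0249 and 0.0349; over all alternatives 0.0249 to 0.280 and 0.0349 to 0.259), making 7 members. CESA8 was called with DESeq2 (adjusted p = 0.0355), with limma (adjusted p = 0.0490), with only these 2 groups in the fit (adjusted p = 0.0336) and without wild-type mock replicate 3 or wild-type salt replicate 3 (adjusted p = 0.0403 and 0.0458), within a range of 0.0336 to 0.197 over all alternatives. The calls of CESA4, CESA3 and CSI1 depended on single libraries and, for CESA3 and CSI1, on other choices. With only the 2 groups in the fit CESA3 (adjusted p = 0.0745) and CSI1 (adjusted p = 0.0804) were lost, and CSI1 was also lost with upper quartile scaling (adjusted p = 0.0519) and without the filter on low counts (adjusted p = 0.0511). Without overexpressor mock replicate 1 or 3 the comparison had 2 called members and without overexpressor salt replicate 2 or 3 it had 3, with adjusted p for CESA4 of 0.0589 to 0.114 in these 4 fits. CESA3 was lost without either of those mock libraries (adjusted p = 0.0663 and 0.0580), CSI1 was lost in 8 of the 12 fits that left out a library (adjusted p from 0.0314 to 0.119 over the 12), while CESA1 and CESA6 stayed called in all 12. The 8 were wild-type mock replicate 1, wild-type salt replicates 1 and 3, each overexpressor mock library and overexpressor salt replicates 2 and 3.

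**Figure D2:**
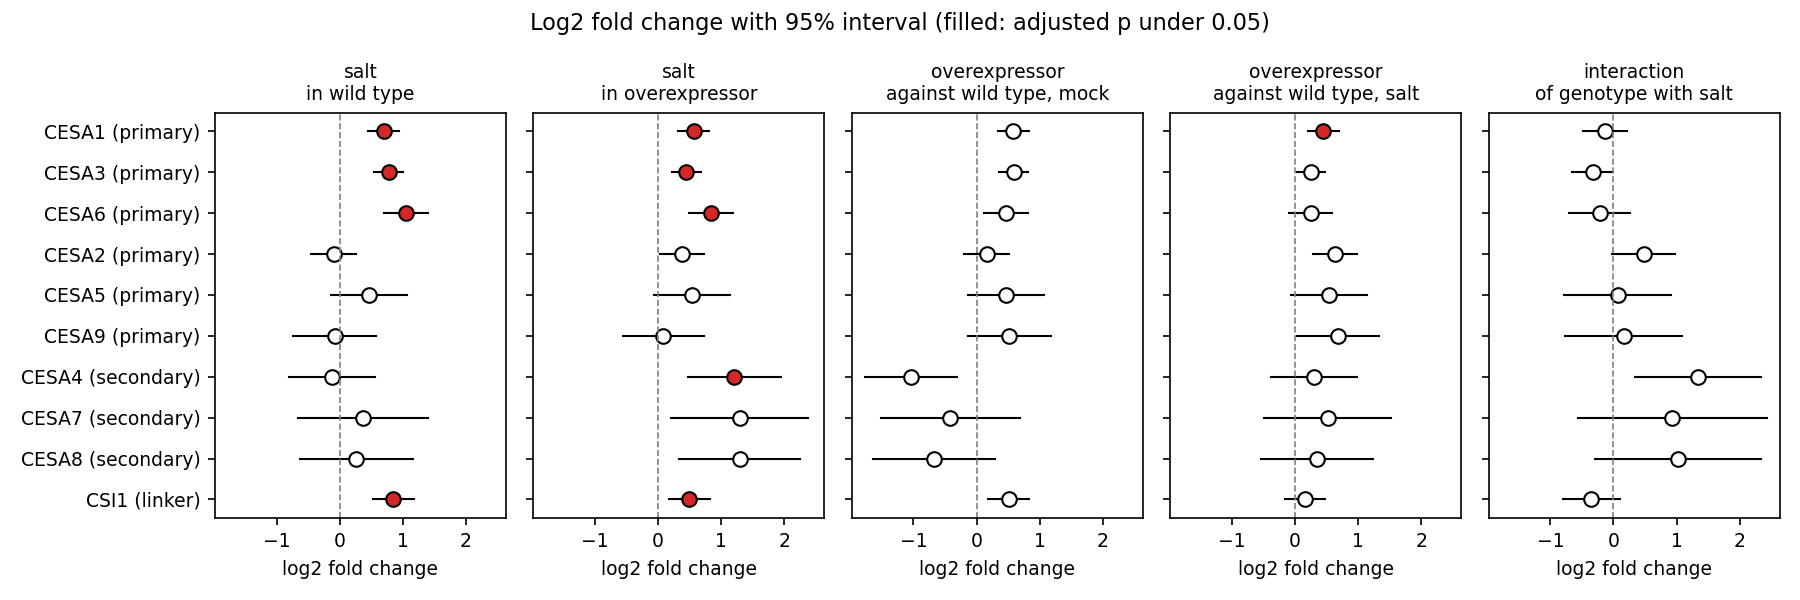
Log2 fold change of each member (points) with its 95% interval (lines) in the 5 comparisons, from 1 edgeR model of 12 libraries; filled points have an adjusted p under 0.05 over all genes tested. Filled points are CESA1, CESA3, CESA6 and CSI1 in both salt comparisons, CESA4 in the overexpressor only, and CESA1 between genotypes in salt.

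In mock leaves no member passed the test across all genes. CESA1, CESA3, CESA6, CESA9 and CSI1 had every overexpressor library above every wild-type one. With no share over all genes counted, whether this is unusual cannot be said. Of the 10 members 0 were called by edgeR, beside 0.101% of all genes tested called in either direction. An unadjusted p under 0.05 was found for 5 members, beside 1386 of the 18886 genes tested. CESA1 stood at 318 to 364 CPM in wild type and at 507 to 518 CPM in the overexpressor, CESA3 at 328 to 344 and 484 to 523 CPM. The ranges were well apart for both, with log2 fold changes of 0.58 ± 0.11 SE for CESA1 (adjusted p = 0.103) and 0.59 ± 0.10 SE for CESA3 (adjusted p = 0.0824). The log2 fold change was 0.51 for CSI1 (adjusted p = 0.353), 0.47 for CESA6 (adjusted p = 0.480) and 0.52 for CESA9 (adjusted p = 0.796), whose groups lay only narrowly apart.

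CESA4 went the other way, at 3.17, 3.80 and 2.91 CPM in wild-type mock and 1.15, 1.95 and 1.73 CPM in overexpressor mock. All overexpressor libraries were below all wild-type libraries, with a log2 fold change of -1.04 ± 0.33 SE that was not called (adjusted p = 0.448). CESA7 and CESA8 overlapped, with log2 fold changes of -0.42 (adjusted p = 0.932) and -0.67 (adjusted p = 0.843), and so did CESA2 (0.16, adjusted p = 0.917) and CESA5 (0.47, adjusted p = 0.810). The median log2 fold change was 0.49 over primary and -0.67 over secondary members, beside -0.02 over all genes tested. DESeq2 called 3 members in this comparison, CESA1 (adjusted p = 1.02e-08), CESA3 (adjusted p = 4.43e-13) and CSI1 (adjusted p = 0.0393), where edgeR and limma called 0. Over all alternatives the adjusted p of CESA1 ran up to 0.471, of CESA3 up to 0.404 and of CSI1 up to 1.00.

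In salt, CESA1 was the only member called between genotypes, 1 of 10 higher beside 2.07% of all genes tested called higher. CESA1 was read at 602, 534 and 527 CPM in wild-type salt and at 715, 750 and 807 CPM in overexpressor salt. The libraries did not overlap, and CESA1 was 1.37-fold higher in the overexpressor (log2 fold change 0.45 ± 0.11 SE, adjusted p = 0.0459). CESA2 was read at 150, 142 and 162 CPM in wild-type salt and at 218, 226 and 262 CPM in overexpressor salt. Its groups lay apart with a larger estimate, but it missed the threshold (log2 fold change 0.63 ± 0.16 SE, adjusted p = 0.0512).

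All 10 members had a positive log2 fold change here and for 6 (CESA1, CESA2, CESA3, CESA6, CESA9 and CSI1) all overexpressor libraries lay above all wild-type ones, with no share over all genes counted. The estimate was 0.26 for CESA3 (adjusted p = 0.179), 0.25 for CESA6 (adjusted p = 0.376), 0.15 for CSI1 (adjusted p = 0.573), 0.68 for CESA9 (adjusted p = 0.206) and 0.54 for CESA5 (adjusted p = 0.276). The secondary members overlapped between genotypes, with estimates of 0.30 for CESA4 (adjusted p = 0.612), 0.52 for CESA7 (adjusted p = 0.548) and 0.35 for CESA8 (adjusted p = 0.648). The median log2 fold change was 0.49 over primary and 0.35 over secondary members, beside 0.02 over all genes tested. The CESA1 call sat at the threshold. It was lost without the filter on low counts (adjusted p = 0.0769), with only these 2 groups in the fit (adjusted p = 0.197) and in 10 of the 12 fits that left out a library, where the adjusted p ran from 0.0447 to 0.163. The 10 were each of the 3 wild-type mock libraries, wild-type salt replicates 2 and 3, each of the 3 overexpressor mock libraries and overexpressor salt replicates 2 and 3.

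No member's response to salt was shown to differ between genotypes. The interaction called 0 of the 10 members with edgeR, beside 0% of all genes tested. Beside 2580 of the 18886 genes tested, 2 members had an unadjusted p under 0.05. These were CESA4, with a salt log2 fold change 1.34 higher in the overexpressor (95% interval 0.34 to 2.34, adjusted p = 0.226), and CESA3, with one 0.33 lower in the overexpressor (log2 difference -0.33, 95% interval -0.65 to -0.01, adjusted p = 0.350). DESeq2 called CESA3 (adjusted p = 0.0179, with a range over all alternatives up to 0.563), and limma called 0 members. For CESA2 the difference was 0.48 (95% interval -0.02 to 0.98), for CESA8 1.03 (-0.29 to 2.34) and for CESA7 0.93 (-0.57 to 2.42), so differences of more than 2-fold lay inside the intervals of both CESA7 and CESA8. For CESA1 the interval was -0.48 to 0.21 and for CESA6 -0.70 to 0.26.

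Within the primary wall set, the balance among isoforms that can fill the third position moved with salt, while the shares of the 3 positions stayed close. Of the summed primary level per kilobase, CESA1 held 27.7% to 31.7%, CESA3 held 28.9% to 35.6% and the CESA6-like members together 33.0% to 43.4% over all 12 libraries. Of the CESA6-like sum, CESA6 held 43.6%, 46.0% and 42.8% in wild-type mock and 59.7%, 57.1% and 61.4% in wild-type salt. In the overexpressor CESA6 held 47.4%, 48.9% and 45.2% in mock and 50.4%, 56.5% and 54.5% in salt. The salt libraries were above the mock libraries in both genotypes, and every overexpressor salt library was below every wild-type salt library. CESA2 held 33.5%, 35.1% and 34.7% of that sum in wild-type mock and 18.5%, 22.7% and 22.3% in wild-type salt. In the overexpressor CESA2 held 27.5% to 31.1% in mock and 22.1% to 27.4% in salt, so the salt libraries were again lower, narrowly. CESA5 held 16.2% to 27.4% over all libraries without separating the groups. These shares are built from the levels given above and carry no test of their own.

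The 3 secondary members made up 0.681% ± 0.228 of the level of all 9 synthases in mock and 0.452% ± 0.238 in salt leaves of the wild type, and 0.279% ± 0.0792 and 0.456% ± 0.0538 in those of the overexpressor. As mean log2 CPM per kb, CESA1, CESA3 and CESA6 exceeded CESA4, CESA7 and CESA8 by 6.87, 6.41 and 7.47 in wild-type mock and by 8.32, 7.82 and 6.87 in wild-type salt. In the overexpressor the excess was 8.68, 8.08 and 7.80 in mock and 7.66, 7.37 and 7.46 in salt. All overexpressor mock libraries were above all wild-type mock libraries and all overexpressor salt libraries, while the wild-type salt libraries spread over most of the range. As means the excess was 6.92 ± 0.53 in mock and 7.67 ± 0.74 in salt leaves of the wild type, and 8.18 ± 0.45 and 7.50 ± 0.15 in those of the overexpressor.

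**Figure D3:**
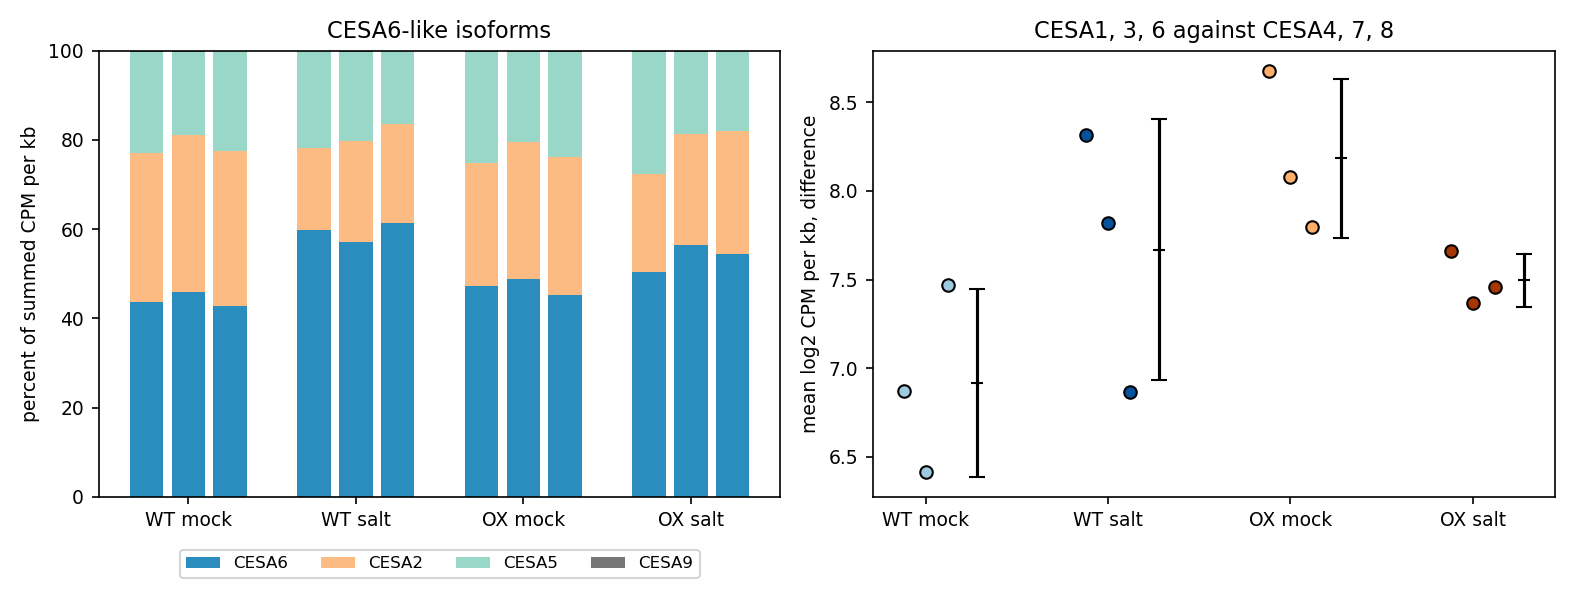
Left, share of CESA6, CESA2, CESA5 and CESA9 in the summed CPM per kb of these isoforms, 1 bar per library in the 4 groups; CESA9 is under 0.3% and barely visible. Right, mean log2 CPM per kb of CESA1, CESA3 and CESA6 minus that of CESA4, CESA7 and CESA8, with points for libraries and mean ± SD beside them on an axis that does not start at 0. CESA6 holds over 50% of its set in all salt libraries and under 50% in all mock libraries, and the right panel is highest in OX mock.

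The summed level of 5 xylem markers (XCP1, XCP2, VND7, COBL4, LAC4) ran from 15.7 to 27.2 CPM in mock and 17.8 to 27.3 CPM in salt leaves of the wild type, and from 8.81 to 17.6 CPM and 21.7 to 30.8 CPM in those of the overexpressor, and none was at 0 in all libraries. Of the 4 that were tested, 1 was called in overexpressor salt, beside 9.72% of all genes called higher, and 0 in the other comparisons. It was XCP2, a cysteine protease of xylem vessels, which rose 1.90-fold (adjusted p = 0.0419). XCP1 (adjusted p = 0.151), LAC4 (adjusted p = 0.0553) and COBL4 (adjusted p = 0.489) were not called in overexpressor salt. XCP2 was read at 5.13, 8.10 and 7.33 CPM in overexpressor mock and at 9.94, 15.0 and 14.1 CPM in salt. The part of xylem content in the values of CESA4, CESA7 and CESA8 was not tested. Other markers showed the leaf origin, with the mesophyll sum (RBCS1A, LHCB1.3, CA1) at 6959 to 11270 CPM and the meristem gene STM at 0 in every library. In wild-type salt 2 of 3 phloem markers, 2 of 4 tested guard cell and epidermis markers and 1 of 3 mesophyll markers were called lower, beside 21.1% of all genes called lower. In overexpressor salt 0 of each were called lower, beside 8.55% of all genes, while the only tested flower marker, PI, was called higher there at 0, 2.73 and 2.38 CPM.

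**Figure D4:**
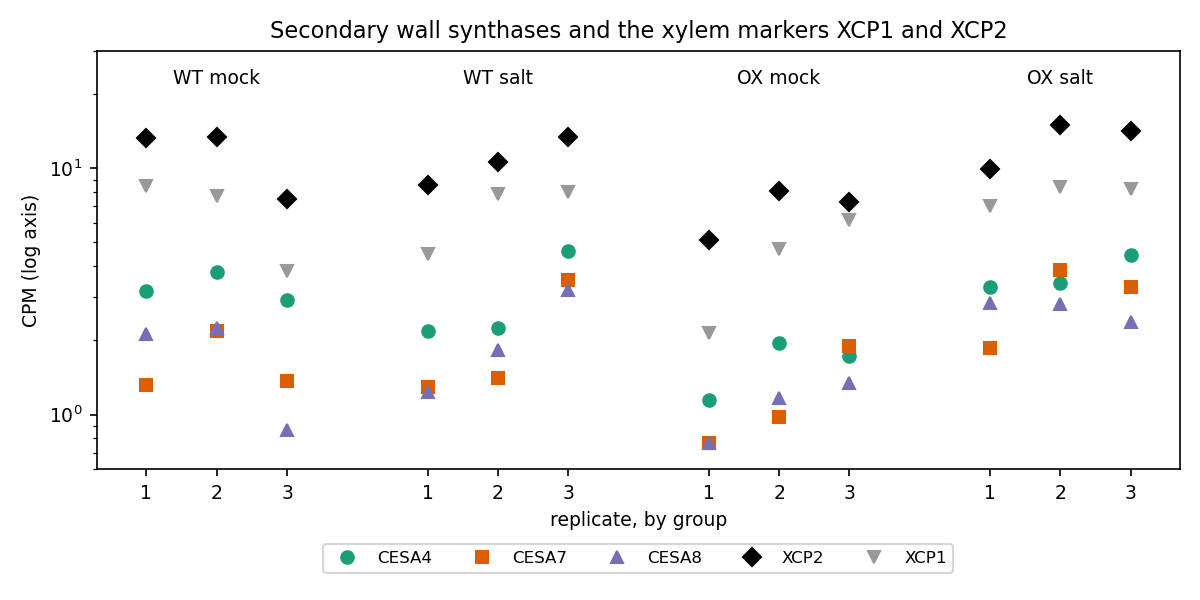
CPM (log axis) of the secondary wall synthases CESA4, CESA7 and CESA8 and of the xylem markers XCP1 and XCP2 in each of the 12 libraries, by group and replicate. All 5 genes are lowest in OX mock replicate 1, and CESA4 and CESA8 are highest in WT salt replicate 3.

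Genes with the most similar profile over the 12 libraries were ranked by the root mean square difference of centred log2 CPM. CSI1 was second of 18883 genes ranked against the mean profile of CESA1, CESA3 and CESA6, at a distance of 0.115 where the median gene stood at 0.570. The first was AT4G14360 (0.112), a predicted methyltransferase, followed after CSI1 by AT1G14460 (0.134), APO1 (0.140) and AT1G61310 (0.144). For the mean profile of CESA4, CESA7 and CESA8 the nearest was XCP2 (0.239), followed by AT4G08160 (0.245), AT1G23460 (0.261), AT3G27200 (0.276) and AT1G06440 (0.280), where the median gene stood at 0.670. These distances share the same libraries and are a description.

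Of 14 genes listed as partners of cellulose synthase complexes, with the synthase CESA10 among them, 10 were tested. In wild-type salt 7 were called higher (beside 20.3% of all genes) and in overexpressor salt 4 (beside 9.72%). In both, 0 were lower, and 0 were called between genotypes in either treatment. The list's median log2 fold changes were 0.59 and 0.46 in the salt comparisons. The difference between genotypes in the counts of called genes was not tested. CC1, a companion of cellulose synthase known to keep the complex and microtubules working under salt, was read at 59.9, 42.8 and 77.8 CPM in wild-type mock and at 242, 168 and 229 CPM in salt. Its groups lay well apart, a rise of 3.55-fold (adjusted p = 0.000188), and in the overexpressor it rose 2.29-fold (adjusted p = 0.00663). CC2 rose 3.51-fold in wild type (adjusted p = 0.000910) and was 1.19-fold higher without a call in the overexpressor (adjusted p = 0.575), and STL2, a Golgi protein that acts in assembly of the complex, rose 2.06-fold in wild type (adjusted p = 5e-05) and 1.49-fold in the overexpressor (adjusted p = 0.00398). STL1 rose 1.87-fold in wild type (adjusted p = 0.00164) and 1.53-fold in the overexpressor (adjusted p = 0.0279). CESA10 (AT2G25540), the close copy of CESA1, had too few counts to be tested.

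Tubulin genes, which encode the microtubules that CSI1 binds, were called higher for 8 of 15 in wild-type salt and 7 of 15 in overexpressor salt, beside 20.3% and 9.72% of all genes, with 0 lower and 0 called between genotypes. TUA2 rose 2.90-fold and 2.69-fold, TUA4 2.78-fold and 2.26-fold, and TUA6 2.13-fold and 1.93-fold in wild type and overexpressor; near-identical copies among the tubulins can share reads. Of 6 genes of wall integrity sensing, 1 was called higher in each salt comparison, beside 20.3% and 9.72% of all genes. It was THE1, which responds to defects in cellulose synthesis (2.66-fold and 3.07-fold). Between genotypes in salt 1 was called, FEI2 (1.71-fold higher in the overexpressor, adjusted p = 0.0276), beside 2.07% of all genes called higher. Of 9 tested genes for substrate supply, 2 rose and 3 fell in wild-type salt, beside 20.3% and 21.1% of all genes, and 0 rose and 2 fell in overexpressor salt, beside 9.72% and 8.55%. UGP2, which makes UDP-glucose, fell 2.67-fold and the sucrose synthases SUS5 and SUS6 fell 2.74-fold and 2.37-fold in wild type, while UGP1 was not called (adjusted p = 0.888). The 2 genes of this list that rose there, named after their values were seen, were the sucrose synthase SUS1 (1.89-fold, adjusted p = 0.00419) and the invertase CINV1 (1.99-fold, adjusted p = 0.00458). In the overexpressor SUS5 fell 1.94-fold and UGP2 1.72-fold, and SUS1 and CINV1 were not called (adjusted p = 0.161 and 0.124).

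Of 18 tested cellulose synthase-like genes, relatives of the CESA family, 5 rose and 3 fell in wild-type salt (beside 20.3% and 21.1% of all genes). In overexpressor salt 4 rose and 3 fell (beside 9.72% and 8.55%). Between genotypes in salt 2 were higher in the overexpressor (beside 2.07%). CSLB1 had 0 counts in all mock libraries and reached a mean of 6.94 CPM in wild-type salt and 5.32 CPM in overexpressor salt, at least 108-fold and at least 63.9-fold higher against a limit of 3 counts over the mock group. CSLG2 rose 23.1-fold in wild type (adjusted p = 0.000497) and was 2.30-fold higher without a call in the overexpressor (adjusted p = 0.206). CSLD1 rose 14.9-fold and 10.6-fold in wild type and overexpressor (adjusted p = 0.00263 and 0.0364), from mock means of only 0.085 and 0.058 CPM. CSLC4, a xyloglucan backbone synthase, rose 3.39-fold in wild type (adjusted p = 0.00620) and 3.16-fold in the overexpressor (adjusted p = 0.0202). CSLE1 fell 2.39-fold in wild type and 2.91-fold in the overexpressor (adjusted p = 0.0397 and 0.0355). CSLG3 and CSLA2, a glucomannan synthase, were 2.66-fold and 1.92-fold higher in the overexpressor in salt (adjusted p = 0.0447 and 0.0218).

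Of 9 tested secondary wall enzymes and partners, such as those of xylan and lignin synthesis, 0 were called in any comparison by edgeR. Of all genes tested, 41.4% were called in wild-type salt and 18.3% in overexpressor salt. For genotypes the shares were 0.101% in mock, 4.39% in salt and 0% in the interaction. LAC17 and LAC4 came near the threshold in overexpressor salt (adjusted p = 0.052 and 0.0553). COBL4, IRX8 and IRX9 drew only 97, 128 and 155 counts over the 12 libraries, which limits what can be said of them. The list medians were 0.01 in wild-type salt, 0.55 in overexpressor salt, -0.59 between genotypes in mock and 0.18 in salt. Of 10 secondary wall regulators only 2 passed the filter on low counts, and MYB63, an activator of lignin genes, was lower in the overexpressor in salt, at 1.02, 1.59 and 0.953 CPM in wild type and 0.299, 0 and 0.246 CPM in the overexpressor (adjusted p = 0.0412), beside 2.32% of all genes called lower. The xylem markers COBL4 and LAC4 are also among these enzymes and partners.

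The members share sequence to different degrees, which bears on how reads of close pairs were assigned. In aligned coding sequence CESA5 and CESA6 were 86.0% identical (protein 91.8%), CESA2 and CESA9 84.7% (protein 88.2%) and CESA1 and CESA3 72.4% (protein 71.4%). How reads that fit 2 genes were treated is not given in the sources used here. CESA4 shares 17 exon bases on the same strand with AT5G44020. On the opposite strand CESA8 shares 481 bases, 14.4% of its exons, with MYB98 (AT4G18770) and 81 with AT4G06845. Likewise CESA4 shares 65 with AT5G44040 and CESA7 shares 66 with AT5G17410. Overlaps on the opposite strand were not limited to secondary members. CESA3 shares 74 with AT5G05160, CESA1 shares 28 with AT4G32400 and CSI1 shares 22 with AT2G22140. If counting did not use strand, reads from these shared bases cannot be told apart. MYB98 itself had 0 counts, while group means were 4.43 to 7.48 CPM for AT5G44040 and 9.38 to 10.7 CPM for AT5G17410. AT5G44020 was read at 152 to 299 CPM over the 12 libraries, well above CESA4, with log2 fold changes of -0.64 in wild-type salt (adjusted p = 0.0224), 0.18 in overexpressor salt (adjusted p = 0.546), -0.31 between genotypes in mock (adjusted p = 0.830) and 0.51 between them in salt (adjusted p = 0.157). Its part in the values of CESA4 was not tested.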

How the data were processed

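The authors deposited whole-number counts per gene, not normalised, and a TMM-normalised signal, which equals each library's counts divided by 1 constant; the latter served only as an alternative input. Per the labels' protocols, poly(A) RNA was sequenced from strand-specific libraries. TopHat, Cufflinks and TAIR10 are named, without versions, per the submitters' processing notes; counting settings are not given in the sources. Depth ran from 10425430 to 18398594 counts. The 7 entries without a gene name (0.382% to 0.897% of counts) were left out.

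The test was edgeR's quasi-likelihood F test with robust fitting (edgeR 4.0.16 in R 4.3.3), on counts with TMM factors and the filter on low counts by group (18886 genes), in 1 model of 4 groups with 8 residual degrees of freedom. All adjusted p-values are from edgeR with Benjamini-Hochberg adjustment over all genes tested unless DESeq2 1.42.0 or limma 3.58.1 (log2 of signal plus 1) is named, and genes under 0.05 were called. SE was taken from the log2 fold change, as its size divided by the root of F. CPM used TMM-scaled library sizes over tested genes, and CPM per kb used exon lengths of TAIR10.1. Limits from counts of 0 cover counting error only.

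The salt comparison in wild type and the genotype comparison in mock share the wild-type mock libraries, and other pairs share libraries likewise. The labels number the replicates alike in all groups. Deviations of same-numbered libraries correlated at 0.306 to 0.401 for salt in wild type, 0.132 to 0.273 for salt in the overexpressor and 0.270 to 0.730 between genotypes in mock. The numbers were taken to pair libraries in these comparisons, where every correlation was positive. The main test holds no term for the pairing, so its adjusted p-values ignore it. Of the alternatives, only the replicate block includes it. Between genotypes in salt the correlations were 0.374, -0.025 and 0.526 for replicates 1, 2 and 3, and the numbers were not taken to pair libraries. Pairing in the other comparisons would, however, link the salt libraries by number as well. Alternatives were other scaling, no filter, other tools, only the groups compared, a replicate block and leaving out each library. Named were all members, in each list and comparison up to 3 called genes of at least 1 CPM with the largest changes, and the 5 nearest profiles. Members and lists were chosen with earlier results of these data known.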

Additional observations from a re-analysis of the deposited data

How the results depend on the processing

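In wild-type salt, 4 members were called under every alternative run. In overexpressor salt the count was 4 to 7 under other scaling, filter, tool, groups fitted or replicate block, and 2 to 6 when a library was left out. Between genotypes in mock, DESeq2 called 3 members, every other alternative 0, and leaving out a library 0. Between genotypes in salt, where edgeR called 1 member, DESeq2 called 3, upper quartile scaling, limma and the replicate block 2 each (CESA2 adjusted p = 0.00968 with the block), and no filter or only the 2 groups fitted 0, with 0 to 1 when a library was left out. In those fits the called member was CESA1 in some and CESA2 in others (lowest adjusted p = 0.0447 and 0.0386). Over all genes, the replicate block called 2344 in that comparison where the fit without it called 829. Whether the numbers pair the libraries there was left undecided, with correlations from -0.025 to 0.526. DESeq2 called 1 member in the interaction and all other alternatives 0, including leaving out each library. In the comparisons whose numbers were taken to pair libraries, the replicate block changed no call other than those of CESA2 and CESA7 in overexpressor salt. Over all genes the interaction called 0 with edgeR, 659 with DESeq2, 379 with the block and 65 with limma.

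Leaving out a library turned the sign of some estimates that were never called. In wild-type salt the log2 fold change ran from -0.224 to 0.077 for CESA2, -0.572 to 0.054 for CESA4, -0.258 to 0.638 for CESA7, -0.182 to 0.527 for CESA8 and -0.244 to 0.085 for CESA9. In overexpressor salt it ran from -0.100 to 0.278 for CESA9. In the interaction it ran from -0.191 to 0.276 for CESA5 and -0.022 to 0.356 for CESA9. No alternative other than leaving out a library turned a sign. With all 6 primary members in place of CESA1, CESA3 and CESA6, the log2 excess over the secondary members was 5.13 in mock and 5.51 in salt leaves of the wild type, and 6.31 and 5.48 in those of the overexpressor. The causes were not tested. CESA4, CESA7, CESA8 and CESA9 rest on 10 to 82 counts per library, which limits what can be said of them.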
